A study of Mus musculus with 24 samples.

Results

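Flt3, Zbtb46, Batf3, Id2, Fscn1, Clec9a, Itgax and Tcf4 are 8 genes by which dendritic cells and their states of development and maturation are commonly recognised. They were taken by symbol from the count files, where all 8 were found among 20673 gene symbols in each of 24 libraries. The study sequenced messenger RNA from 4 activated cell types of C57BL/6J mice that either lacked miR-155 (KO) or carried it (WT), which makes 8 groups of 3 libraries. miR-155 is induced when immune cells are activated and lowers messenger RNAs that carry matches to its seed.

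The KO and WT dendritic cells were CD11c+ cells of the spleen, taken with microbeads from mice that had been injected with B16 melanoma cells making Flt3 ligand. Both genotypes therefore carried the tumour and the excess ligand, and both received 100 ng/ml LPS with 20 ng/ml GM-CSF (a cytokine spelled GMSCF in the labels) in culture. KO and WT macrophages were drawn from the peritoneum after thioglycollate and received 100 ng/ml LPS. KO and WT B cells were spleen cells left after removal of CD43-bearing cells and received 25 ug/ml LPS with 6.5 ng/ml IL-4. KO and WT CD4 T cells came from spleen and lymph node, lacked CD25 and CD44 and received beads with antibodies to CD3 and CD28. The 3 libraries of a group are described only as sequencing replicates and no separate animals are named, so the p-values measure the spread between libraries, which may be technical.

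Dendritic cells arise from bone marrow precursors that carry FLT3, the receptor for Flt3 ligand, and excess of the ligand expands them in the spleen. The conventional lineage expresses the transcription factor ZBTB46. Its type 1 branch needs BATF3 and ID2 and displays CLEC9A, a receptor for the actin filaments of dead cells, while the plasmacytoid branch needs TCF4, an E protein whose DNA binding ID2 blocks. ITGAX is CD11c, the integrin chain used to purify these cells. FSCN1 is fascin, which bundles actin into the long protrusions of mature dendritic cells and is induced when they are activated.

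The sequences that bear on the genotype are miR-155-5p and its matches in the members. The mature mouse sequence in RefSeq lies at chr16:84714143-84714165 on the plus strand of GRCm38.p6, and its seed, bases 2 to 8, is in capitals.
mmu-miR-155-5p: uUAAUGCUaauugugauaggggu
Matches were searched on the sense strand of the longest annotated 3′ UTR of each gene in GENCODE M21 (GRCm38). The 8mer is AGCATTAA, the 7mer-m8 AGCATTA and the 7mer-A1 GCATTAA, and a longer match was not counted again as a shorter one. Of 19461 symbols with a 3′ UTR, 12.8% held at least 1 of these. Of the members, 4 of 8 did. The 3 sites below are shown so that the genotype effects can be read beside them, with the match in capitals and flanking bases in lower case.
Zbtb46, 7mer-m8: aaggctactaAGCATTAgggccaattaa
Id2, 7mer-A1: acctatttctGCATTAAaatgtaatgac
Clec9a, 7mer-A1: gggtggtgggGCATTAActctgcagtga
The Zbtb46 match lies at chr2:181389617-181389623 on the minus strand, the Id2 match at chr12:25094027-25094033 on the minus strand and the Clec9a match at chr6:129423148-129423154 on the plus strand.

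The 3′ UTR of Tcf4, 6007 bases long, held 2 8mers and 1 7mer-m8, whose sequences are not printed. These letters were not found in the annotated 3′ UTRs of Flt3, Batf3, Fscn1 and Itgax, of 430, 310, 1087 and 463 bases.

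Levels are given as CPM, counts scaled to a common library size after TMM normalization, which allows libraries to be compared. Gene counts ran from 7428821 to 8281861 per dendritic cell library and from 7428821 to 14219823 over all libraries. miR-155 itself is not counted in coding-sequence tables, so the genotype label was not checked on it. The dendritic cell libraries were examined by marker sums. In dendritic cells the maturation list made up 43589 to 44699 CPM in KO libraries and 33305 to 35625 CPM in WT libraries. B16 melanoma markers summed to 1.99 to 2.38 CPM in KO and 2.17 to 5.11 CPM in WT, with 7 of 9 genes at 0 in each of these libraries, and red cell markers to at most 0.474 CPM. Macrophage markers, 19 genes led by Apoe, summed to 187 to 206 CPM in KO dendritic cells, against 257, 326 and 522 CPM in WT dendritic cells. WT dendritic cell replicate 3 had the highest of these sums and also 21.6 CPM of neutrophil markers, against 4.74 and 6.64 CPM in the other WT libraries and 4.12 to 4.77 CPM in KO libraries. By counts over all genes, WT replicate 1 stood farthest from the others, with a chi-square per gene of 15.9 and 11.3 against WT replicates 2 and 3, which differed from each other by 5.38. Results in dendritic cells are therefore also given without WT replicate 3 or WT replicate 1 where that changes them.

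**Figure D1:**
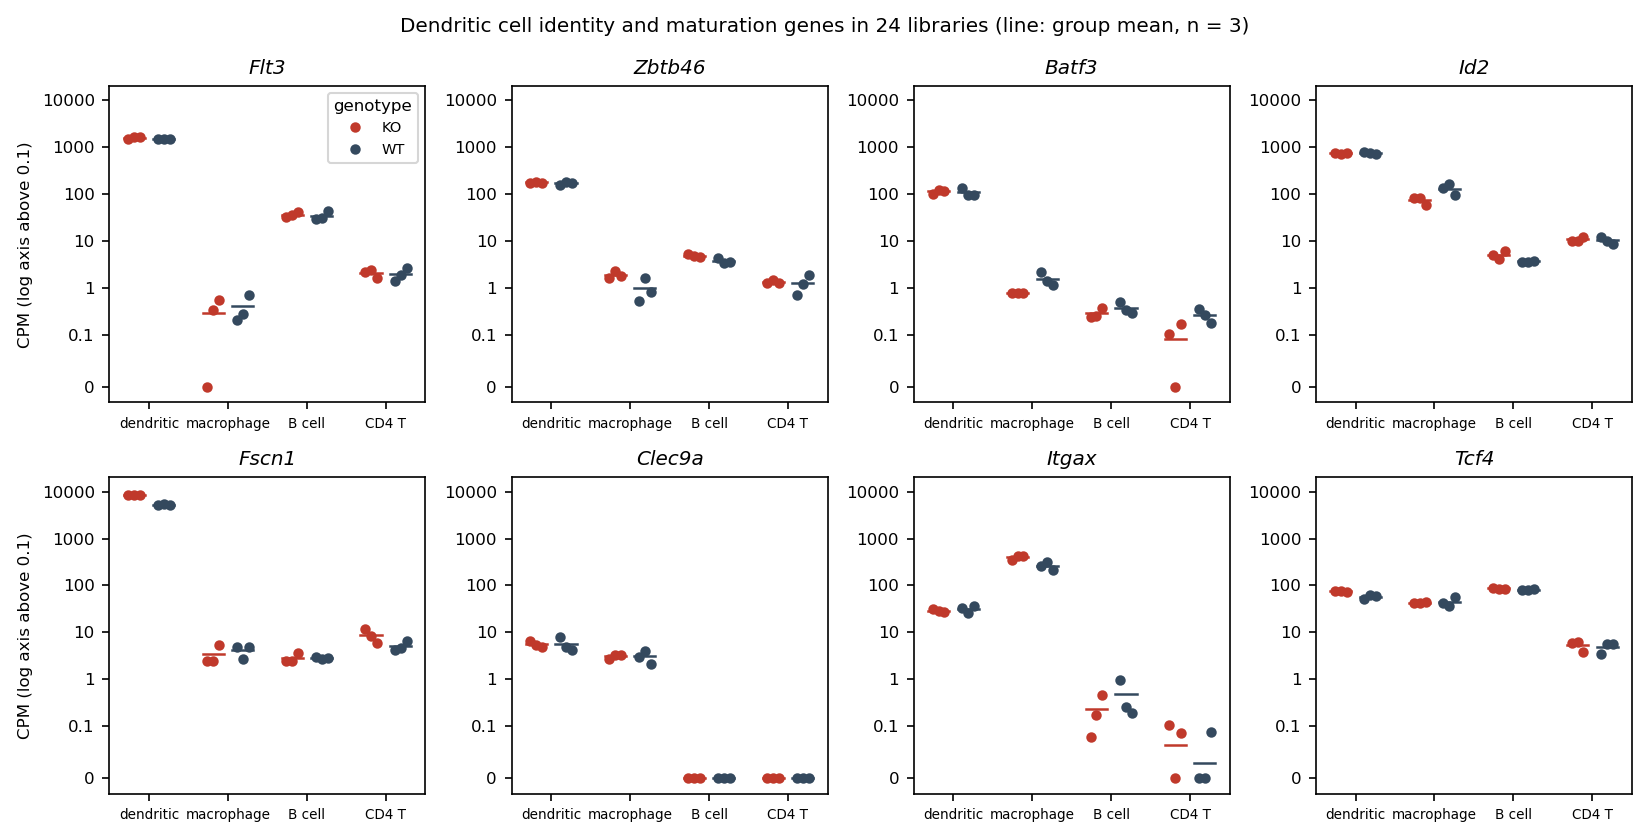
CPM of each member in every library (points, n = 3 per group) with group means (lines), KO left of WT within each cell type, on an axis that is logarithmic above 0.1 CPM and linear below. Fscn1, Flt3, Zbtb46, Batf3 and Id2 are highest in dendritic cells, Itgax is highest in macrophages and Tcf4 is spread over dendritic cells, macrophages and B cells.

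In KO dendritic cells 2 of the 8 members were called, both higher, where a call is an edgeR Benjamini-Hochberg adjusted p under 0.05. Over all 10536 genes tested there, 21.6% were called and 12.2% were called higher in KO, so the share of members called is close to this background. Fscn1 and Tcf4 rose, and Flt3, Zbtb46, Batf3, Id2, Clec9a and Itgax were not called. These are bulk libraries, in which fewer cells of a type and less RNA per cell cannot be told apart.

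Fscn1, at chr5:142960343-142973185 on the plus strand (gene positions are those of GRCm38), encodes the actin-bundling protein fascin. It stood at 8300.4, 8582 and 8439.7 CPM in KO dendritic cells, against 5243, 5494 and 5203 CPM in WT dendritic cells. All KO libraries were above all WT libraries, and the spread within a group was small beside the gap. The edgeR log2 fold change was 0.67 (SE 0.071, 95% interval 0.51 to 0.82, adjusted p = 0.00017), a fold of 1.59. Leaving out 1 library at a time gave 0.65 to 0.69, and it was 0.65 both without WT replicate 3 (adjusted p = 0.0019) and without WT replicate 1 (adjusted p = 1e-06).

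Fscn1 was also the member with the highest level per kilobase of coding sequence, at 5707 ± 95.1 CPM per kb in KO dendritic cells and 3593 ± 106 in WT (SD, n = 3). Elsewhere it was scarce. In macrophages it stood at 2.42, 2.45 and 5.38 CPM in KO and at 4.78, 2.72 and 4.90 CPM in WT, and the genotypes overlapped. B cells had 2.44, 2.45 and 3.71 CPM in KO and 3.05, 2.68 and 2.83 CPM in WT. CD4 T cells had 11.7, 8.55 and 6.02 CPM in KO and 4.19, 4.61 and 6.64 CPM in WT, with 1 KO library below the highest WT library. The T cell log2 fold change of 0.75 (SE 0.26) was as large as that in dendritic cells but was not called by edgeR (adjusted p = 0.17).

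Whether the effect on Fscn1 differed between cell types was tested in a fit of all 24 libraries. Set against macrophages, the dendritic cell effect was larger by 0.93 (SE 0.36, edgeR adjusted p = 0.11), against B cells by 0.67 (SE 0.37, adjusted p = 0.34) and against T cells by -0.08 (SE 0.30, adjusted p = 0.97). None of the 3 differences was called, where 9.27% of 12249 genes were called against macrophages, 5.63% against B cells and 6.1% against T cells, and the intervals were wide, from 0.19 to 1.67 for macrophages, from -0.09 to 1.43 for B cells and from -0.71 to 0.54 for T cells.

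Tcf4, at chr18:69343356-69689079 on the plus strand, encodes the E protein that directs the plasmacytoid lineage. It stood at 77.2, 74.9 and 72.6 CPM in KO dendritic cells, against 50.5, 62.9 and 58.9 CPM in WT dendritic cells. No WT library reached the lowest KO library. Its log2 fold change was 0.38 (SE 0.091, 95% interval 0.18 to 0.58, edgeR adjusted p = 0.014), a fold of 1.3.

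The Tcf4 call was lost without KO replicate 1 (0.36, edgeR adjusted p = 0.06) or KO replicate 2 (0.39, adjusted p = 0.058), and with 1 dispersion estimate over all 24 libraries (0.38, adjusted p = 0.062). It was kept without WT replicate 3 (0.40, adjusted p = 0.041) and without WT replicate 1 (0.29, adjusted p = 0.0069). In macrophages Tcf4 averaged 42.8 ± 0.927 CPM in KO and 45.4 ± 11.2 CPM in WT, in B cells 86.6 ± 1.72 CPM in KO and 81.1 ± 4.26 CPM in WT, and in T cells 5.39 ± 1.32 CPM in KO and 4.93 ± 1.34 CPM in WT (SD, n = 3). None of these 3 cell types gave a call, and the dendritic cell effect did not pass a test of its difference from any of them (edgeR adjusted p of 0.16, 0.46 and 0.66).

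The TMM factors averaged 0.117 lower on the log2 scale in KO than in WT dendritic cells. With library totals in their place, the median log2 fold change of all tested genes there was -0.13, against -0.01 with TMM, so these log2 changes are relative to a shift of that size. Library totals called 844 genes higher and 2003 lower, against 1286 higher and 993 lower with TMM. Fscn1 then had 0.55 (edgeR adjusted p = 0.00049). Tcf4 had 0.27 and was no longer called (adjusted p = 0.055). The small positive values of Flt3, Zbtb46 and Batf3 turned negative under that scaling, at -0.03, -0.07 and -0.06, and stayed uncalled.

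**Figure D2:**
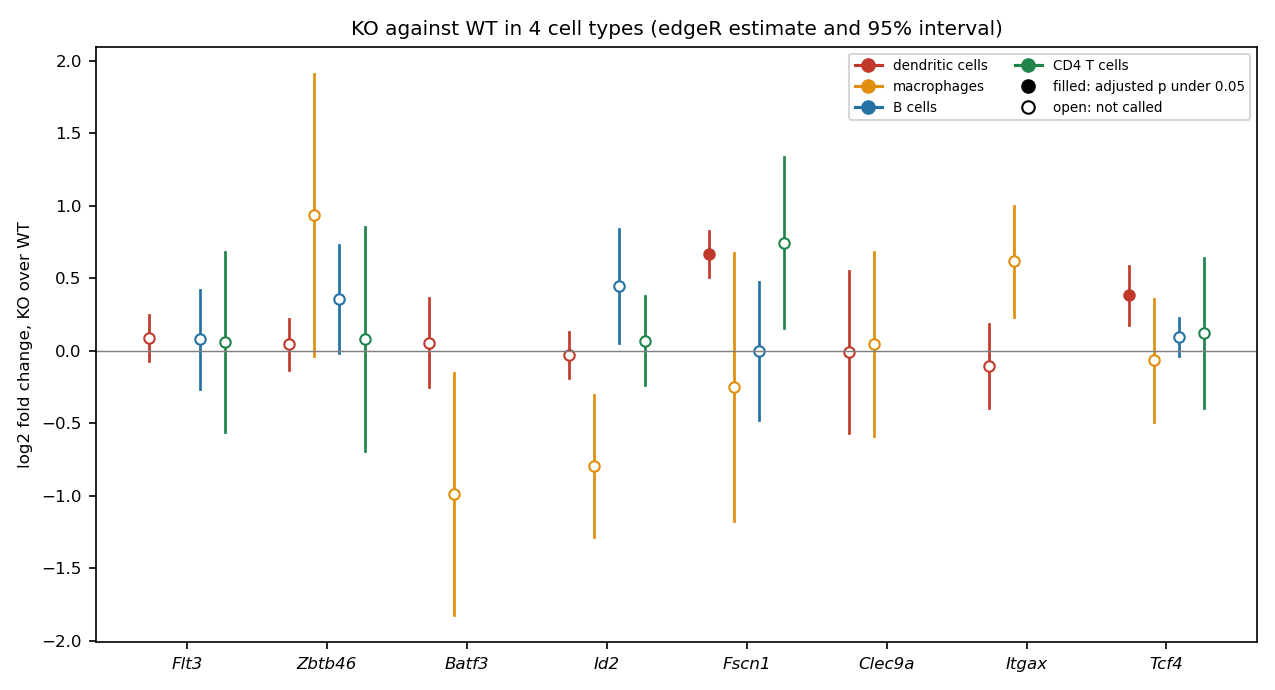
Log2 fold change, KO over WT, of each member in each cell type where it was tested (points, edgeR estimate; bars, 95% interval; filled points, adjusted p under 0.05). Fscn1 and Tcf4 in dendritic cells, at 0.67 and 0.38, are the only filled points. Intervals clear of 0 without a call are those of Id2, Itgax and Batf3 in macrophages (-0.79, 0.62 and -0.99), Id2 in B cells (0.44) and Fscn1 in T cells (0.75).

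Flt3, at chr5:147330741-147400489 on the minus strand, encodes the receptor that was stimulated by the injected tumour's ligand. It had 1504, 1622 and 1620.2 CPM in KO dendritic cells, against 1504, 1502 and 1463 CPM in WT dendritic cells. The lowest KO library lay level with the highest WT library. The log2 fold change of 0.09 was not called (edgeR adjusted p = 0.42), with an interval of -0.07 to 0.25.

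Zbtb46, at chr2:181387762-181459426 on the minus strand, encodes the transcription factor of conventional dendritic cells. KO dendritic cells had 173, 182 and 171 CPM, against 155, 183 and 171 CPM in WT dendritic cells, and the genotypes overlapped. Its log2 fold change was 0.05 (95% interval -0.13 to 0.22, edgeR adjusted p = 0.72).

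Batf3, at chr1:191097847-191108945 on the plus strand, encodes the AP-1 family factor of the type 1 branch. It had 101, 122 and 118 CPM in KO dendritic cells, against 137, 95.5 and 96.1 CPM in WT dendritic cells. WT replicate 1 alone was above every KO library. The log2 fold change was 0.06 (95% interval -0.25 to 0.36, edgeR adjusted p = 0.81), and without WT replicate 1 it was 0.24 with a call (adjusted p = 0.034).

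Id2, at chr12:25093799-25097140 on the minus strand, encodes an inhibitor of E proteins. KO dendritic cells had 748, 719 and 729 CPM, against 786, 741 and 709.7 CPM in WT dendritic cells, and the genotypes overlapped. Its log2 fold change was -0.03 (95% interval -0.19 to 0.13, edgeR adjusted p = 0.83). The ratio of its level to that of Tcf4 was not tested.

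Clec9a, at chr6:129408862-129424763 on the plus strand, encodes the dead-cell receptor of type 1 cells and was scarce even in dendritic cells. It had 6.49, 5.48 and 4.83 CPM in KO dendritic cells, from 34 to 49 reads a library, against 7.82, 4.95 and 4.11 CPM in WT dendritic cells, from 33 to 66 reads. The genotypes overlapped, and at this depth the 95% interval of the log2 fold change ran from -0.57 to 0.55, so a change within that range was not detectable (edgeR adjusted p = 0.99).

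Itgax, the gene of CD11c at chr7:128129547-128150657 on the plus strand, had 31.8, 28.1 and 27.7 CPM in KO dendritic cells, against 32.4, 25.7 and 36.1 CPM in WT dendritic cells. The genotypes overlapped, with a log2 fold change of -0.11 (95% interval -0.40 to 0.18, edgeR adjusted p = 0.6).

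The levels per kilobase of coding sequence spanned a wide range in dendritic cells. Below Fscn1, Id2 averaged 1411 ± 27.97 CPM per kb in KO and 1436 ± 73.6 in WT, Flt3 527 ± 22.5 in KO and 497 ± 7.67 in WT, and Batf3 321 ± 31.4 in KO and 309 ± 66.5 in WT. Zbtb46 followed at 93.3 ± 3.21 in KO and 90.3 ± 7.37 in WT and Tcf4 at 32.9 ± 1.01 in KO and 25.3 ± 2.79 in WT. Itgax, at 8.32 ± 0.642 in KO and 8.95 ± 1.504 in WT, and Clec9a, at 7.04 ± 1.05 in KO and 7.08 ± 2.45 in WT, were lowest (SD, n = 3 throughout).

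Among macrophages, none of the 7 members tested was called, where 0.885% of 10730 genes were. Flt3, with at most 7 reads a library, was not tested. Id2 had 81.3, 80.2 and 59.4 CPM in KO macrophages, against 133, 161 and 95.6 CPM in WT macrophages. No KO library reached the lowest WT library, and the log2 fold change was -0.79 (SE 0.21, edgeR adjusted p = 0.13). The replicate numbers were taken to pair the macrophage libraries, although the labels name no common animal or day. With that replicate block Id2 was called at -0.78 (edgeR adjusted p = 0.028), and 265 genes were called, against 95 without it. The main fits and the tests between cell types had no block. Without WT replicate 3 Id2 was called at -0.97 (adjusted p = 0.0067).

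Itgax had its higher values in KO macrophages, with 345, 426 and 419 CPM in KO, against 265, 309 and 214 CPM in WT. The groups did not overlap, and the log2 fold change of 0.62 (SE 0.16) was not called (edgeR adjusted p = 0.13). It was called without WT replicate 3 (0.49, adjusted p = 0.026). Macrophage markers in these libraries summed to 21388 to 24266 CPM in KO and 25105 to 39313 CPM in WT, and monocyte markers to 590.4 to 641 CPM in KO and 1327 to 1695 CPM in WT. The part of these sums in the Id2 and Itgax values was not tested.

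Other members were low in macrophages. Zbtb46 had 1.65, 2.23 and 1.76 CPM in KO, against 0.519, 1.59 and 0.816 CPM in WT, and Batf3 had 7 reads in each KO library, against 11 to 21 reads in WT libraries. Neither was called by edgeR (log2 fold changes of 0.93 and -0.99, adjusted p of 0.3 and 0.22). Clec9a had 2.75, 3.34 and 3.29 CPM in KO and 3.01, 4.03 and 2.14 CPM in WT, which overlapped.

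Id2 was the 1 member called in the edgeR test of whether the KO effect differed between dendritic cells and macrophages. The difference was 0.79 on the log2 scale (SE 0.20, 95% interval 0.38 to 1.199, edgeR adjusted p = 0.013), with effects of -0.03 in dendritic cells and -0.79 in macrophages, where 9.27% of 12249 genes passed this test. It was called in each of the 12 fits that left out 1 library of these cell types, at 0.60 to 0.95. All these fits took 1 dispersion estimate over every cell type, while macrophages alone gave no call for Id2 (edgeR adjusted p = 0.13). Itgax differed in the opposite direction, by -0.70 (SE 0.22), without a call (adjusted p = 0.053). It was called with RLE size factors (-0.71, adjusted p = 0.046), DESeq2 (-0.71, adjusted p = 0.026) and library totals (-0.86, adjusted p = 0.013). Leaving out dendritic cell WT replicate 2 or macrophage KO replicate 1, WT replicate 2 or WT replicate 3 also gave a call (-0.82, -0.80, -0.83 and -0.58, edgeR adjusted p of 0.01 to 0.039).

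B cells and CD4 T cells each had 5 members with enough reads for a test, and in neither was any called, where 3.2% of 10151 genes and 2.15% of 10396 genes were. Flt3 was the member best seen in B cells besides Tcf4, with 32.7, 35.0 and 41.0 CPM in KO, against 29.7, 30.0 and 43.2 CPM in WT. Id2 had 4.96, 4.05 and 5.94 CPM in KO B cells, against 3.54, 3.60 and 3.80 CPM in WT B cells, with no overlap and no call (0.44, edgeR adjusted p = 0.23). Clec9a had no read in any of the B and T cell libraries.

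The WT libraries place the members by cell type. Against WT macrophages, 6 members were higher in WT dendritic cells, Itgax was lower and Tcf4 was not called, where 77.5% of all 11863 genes were called, 38.1% as higher and 39.4% as lower. Against WT B cells, 7 were higher and Tcf4 was lower, with 78.5% of genes called, 41.2% higher and 37.4% lower. Against WT CD4 T cells all 8 were higher, with 79.4% called, 40.6% higher and 38.8% lower. Calls are thus common in these comparisons, and the size of the difference carries more than the call. The members were chosen as dendritic cell genes with earlier results of these data known, so the counts do not test that choice. Batf3, Clec9a and Itgax had too few reads for a test within B or T cells and entered these fits through other cell types. The same held for Flt3 within macrophages.

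Fscn1 showed log2 differences of 10.33, 10.87 and 10.01 over WT macrophages, B cells and T cells. Flt3 showed 11.82 over macrophages, 9.56 over T cells and 5.45 over B cells. Zbtb46 showed 7.40, 5.52 and 7.06 in the order macrophages, B cells and T cells, and Batf3 6.12, 8.17 and 8.63. For Id2 the gap was 2.52 over macrophages, 7.68 over B cells and 6.19 over T cells. All of these passed edgeR at adjusted p of at most 1.8e-08. WT macrophages had only 2 to 7 Flt3 reads a library, and Batf3 had 3 to 5 in WT B cells and 2 to 4 in WT T cells. Those differences rest on few reads, so their sizes are imprecise. The genes passed the filter there through the groups where they are high, so the calls are not taken as support.

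Clec9a averaged 5.63 ± 1.95 CPM in WT dendritic cells and 3.06 ± 0.946 CPM in WT macrophages (SD, n = 3). The log2 difference of 0.87 was just called (edgeR adjusted p = 0.041), with the lowest dendritic cell library at 4.11 CPM and the highest macrophage library at 4.03 CPM. The call was lost in DESeq2 (adjusted p = 0.07) and without dendritic cell WT replicate 1 (edgeR adjusted p = 0.16). Against a floor of 3 reads a library, Clec9a was at least 20.1-fold higher in WT dendritic cells than in B cells and at least 21.3-fold higher than in T cells.

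Itgax, the gene of the CD11c protein used to purify the dendritic cells, was lower in them than in macrophages. It averaged 31.4 ± 5.27 CPM in WT dendritic cells and 263 ± 47.3 CPM in WT macrophages, a log2 difference of -3.07 (SD, n = 3; edgeR adjusted p = 2.4e-08). The libraries did not overlap. Over B cells it was higher by 6.05 on the log2 scale, an imprecise size, since WT B cells had only 2 to 10 reads a library. Over T cells its reads were 776 in the 3 WT dendritic cell libraries and 1 in the 3 WT T cell libraries, a depth-scaled ratio of 1070 (95% interval 191 to 42200, counting error only).

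Tcf4 was highest in B cells. WT dendritic cells averaged 57.4 ± 6.34 CPM and WT B cells 81.1 ± 4.26 CPM, a log2 difference of -0.49 (SD, n = 3; edgeR adjusted p = 0.021) that was lost in DESeq2 (adjusted p = 0.051) and without dendritic cell WT replicate 1 (edgeR adjusted p = 0.073). Dendritic cells and macrophages overlapped in WT (0.34, edgeR adjusted p = 0.097), a difference that was called without macrophage WT replicate 3 (adjusted p = 0.0026). T cells were lowest, at a log2 difference of 3.54.

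The order of WT levels for the other members had some unresolved neighbours. Flt3 ran from dendritic cells through B cells and T cells to macrophages, and Id2 from dendritic cells through macrophages and T cells to B cells, in each case with no overlap between neighbours. Behind dendritic cells and B cells, Zbtb46 in T cells (0.713 to 1.86 CPM) overlapped macrophages (0.519 to 1.59 CPM). Batf3 in B cells overlapped T cells, and Fscn1 in macrophages overlapped both T cells and B cells.

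The maturation and migration list of 40 genes, to which Fscn1 belongs, was mostly higher in KO dendritic cells. Of 39 tested, 25 were higher, 4 lower and 10 not called by edgeR, with a median log2 fold change of 0.35, against -0.01 and 12.2% called as higher over all tested genes. Without WT replicate 3 the list had 19 higher, and with library totals 18. This list and those below were chosen with earlier results of these data known. Their shares beside those of all genes are therefore a description and not a test. Slco5a1, of the organic anion transporter family, had 174 ± 2.03 CPM in KO and 79.6 ± 9.64 in WT, and Nudt17, of the Nudix hydrolase family, 312.5 ± 24.6 in KO and 141 ± 25.2 in WT. The checkpoint ligand genes Pdcd1lg2 (PD-L2) and Cd274 (PD-L1) rose by 0.80 and 0.78 on the log2 scale, to 104 ± 3.49 and 694 ± 33.8 CPM in KO, against 60.0 ± 4.59 and 404 ± 43.2 CPM in WT. Cd83, a surface marker of mature dendritic cells, reached 840.2 ± 7.36 CPM in KO, against 551 ± 23.2 CPM in WT (SD, n = 3 throughout, edgeR adjusted p of at most 0.00026 for these 5).

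Maturation genes did not all move with Fscn1. Ccr7, the chemokine receptor that guides mature dendritic cells to lymph nodes, had 4785 ± 184 CPM in KO and 4429 ± 508 CPM in WT, and the costimulatory ligand Cd86 had 812 ± 43.3 CPM in KO and 792 ± 14.5 CPM in WT (SD, n = 3). Neither was called (edgeR adjusted p of 0.42 and 0.78), nor were Ccl5 and Traf1. Ccl22, a chemokine of mature dendritic cells that attracts CCR4-bearing T cells, fell to 639.9 ± 15.1 CPM in KO, against 1089 ± 74.7 CPM in WT (-0.77, edgeR adjusted p = 0.00013). The other lower genes, named after their values were seen, were Ccl17, which shares the receptor of Ccl22, the interleukin 12 subunit gene Il12a, at only 0.772 ± 0.261 CPM in KO and 2.90 ± 1.62 CPM in WT, and the costimulatory receptor gene Tnfrsf9 (log2 fold changes of -1.17, -1.87 and -0.28). The other interleukin 12 subunit gene, Il12b, also named after its values were seen, rose to 62.3 ± 10.3 CPM in KO, against 27.3 ± 6.11 CPM in WT (1.19, edgeR adjusted p = 0.00088).

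**Figure D3:**
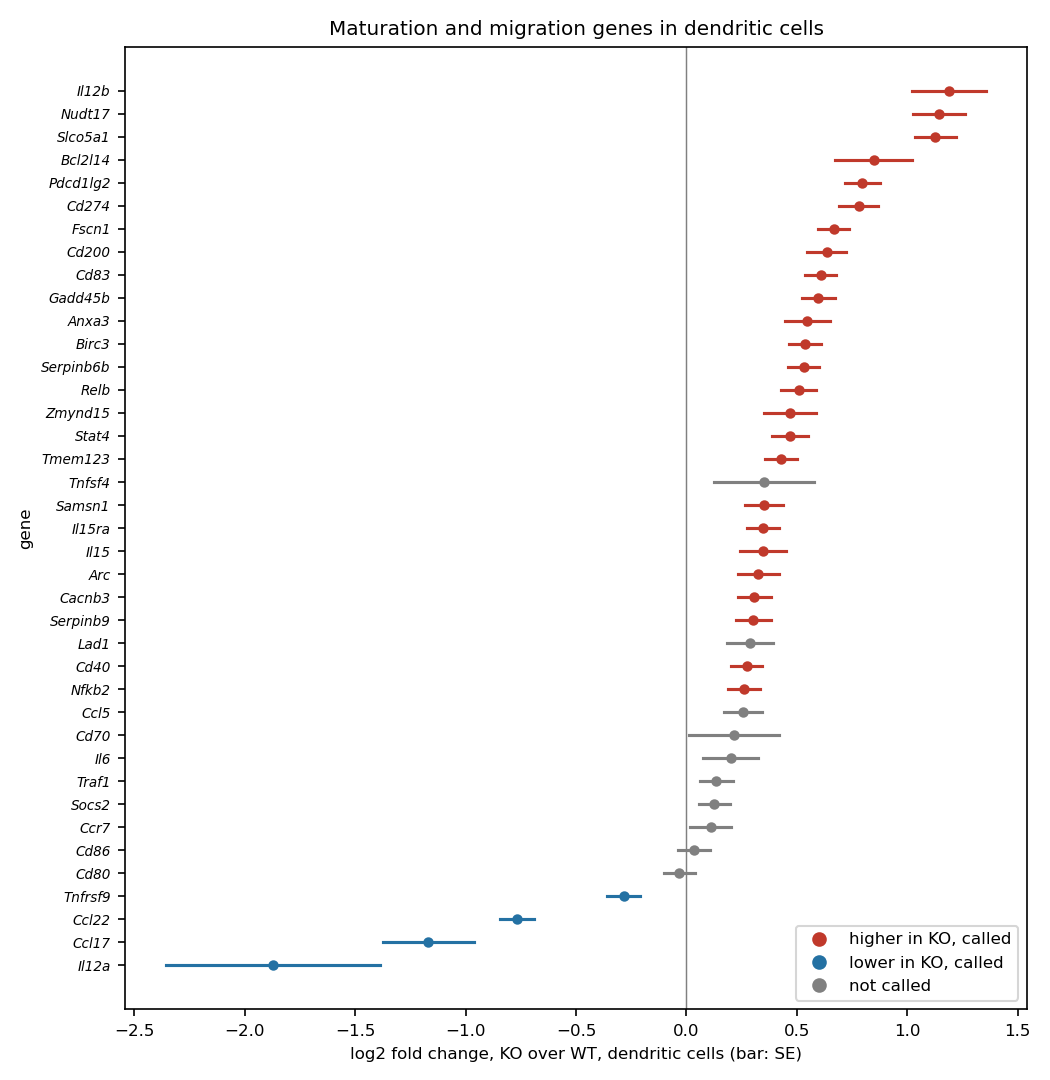
Log2 fold change, KO over WT, in dendritic cells for the 39 tested genes of the maturation and migration list (points, edgeR estimate; bars, SE; red called higher, blue called lower, grey not called). Fscn1 lies among the higher genes at 0.67, Ccr7 sits at 0.11 without a call, and 4 genes from Tnfrsf9 to Il12a lie on the lower side.

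Few genes of this list were called in the other cell types. In macrophages 0 of 30 tested genes were higher and 1 lower, in B cells 5 of 27 were higher and in T cells 2 of 30 were higher, with none lower in B and T cells. Over all tested genes 0.55% were higher in macrophages, 2.09% in B cells and 1.35% in T cells. Ccl22 was among the higher genes in both lymphocytes, at 1.22 in B cells and 0.89 in T cells (edgeR adjusted p of 1.2e-06 and 0.038). The lower gene in macrophages was Ccl17 (-3.12, edgeR adjusted p = 0.03), and Ccl22 had -2.88 there without a call (adjusted p = 0.081). In the test between dendritic cells and macrophages, 13 of 39 had a larger effect in dendritic cells, where 5.29% of all genes did. Of these 39, only 30 had enough macrophage reads for a test within macrophages. The others entered this fit through other groups, and their part in the 13 was not counted.

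Lists for the branches of the lineage gave mixed counts in KO dendritic cells. Of 16 tested genes of the type 1 list, to which Batf3, Id2 and Clec9a belong, 2 were higher, 5 lower and 9 not called, with a median of -0.40 and 9.42% of all genes called as lower. Without WT replicate 3, 4 were lower, and leaving out 1 library at a time gave 2 to 7, the lowest count being reached without WT replicate 1, and also without KO replicate 2 and without KO replicate 3. Naaa, a lipid amidase, had 13.3 ± 1.16 CPM in KO and 42.3 ± 18.6 in WT, the adhesion gene Cadm1 6.72 ± 0.343 in KO and 14.7 ± 2.45 in WT, and Wdfy4, needed for cross-presentation, 42.6 ± 2.97 in KO and 92.9 ± 34.4 in WT (SD, n = 3). The lysosomal Ppt1 and the receptor gene Tlr11 also fell, by 0.86 and 0.51 on the log2 scale. The higher genes were Cd8a, a surface marker of splenic type 1 cells named after its values were seen, with 7.31 ± 1.68 CPM in KO and 2.45 ± 0.892 CPM in WT (1.57, edgeR adjusted p = 0.0033), and Nfil3, a transcription factor of the lineage, which rose by 0.24, while Irf8 (0.28, edgeR adjusted p = 0.096) and Ly75 (0.07, adjusted p = 0.57) were not called. The macrophage marker sum was also lower in KO, at 197 ± 9.58 CPM against 368 ± 138 CPM in WT, with 16 of 19 genes lower in the mean and none at 0 in every library. Its part in the type 1 counts was not tested.

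The type 2 list had 4 of 14 tested genes higher and none lower, with a median of -0.05, against 12.2% higher over all tested genes. Without any 1 of the KO libraries, 2 were higher. Irf4, a factor of this branch, rose by 0.32 to 129 ± 11.5 CPM in KO, against 103 ± 3.80 CPM in WT, and the lectin gene Clec12a by 0.65 (SD, n = 3; edgeR adjusted p of 0.019 and 0.015). Esam and Dtx1 rose by 1.03 and 0.86. Without WT replicate 3, 3 were higher, and with library totals 2.

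Tcf4 belongs to the plasmacytoid list, of which 6 of 25 tested genes were higher and none lower, with a median of 0.17, against 12.2% higher over all tested genes. Upb1 had 9.41 ± 0.563 CPM in KO and 2.51 ± 0.502 CPM in WT, and Lag3, Cbfa2t3 and Bst2 rose by 0.83, 0.45 and 0.27 on the log2 scale (SD, n = 3; edgeR adjusted p of at most 0.024). The Toll-like receptor gene Tlr9, which senses DNA in these cells, and the factor Spib were not called (-0.22 and 0.01). Siglech and Ccr9 of the same list, named after their values were seen, were not called either (0.06 and 0.01, edgeR adjusted p of 0.91 and 0.99). The whole list summed to 945 ± 91.7 CPM in KO and 811 ± 121 CPM in WT (SD, n = 3, exact permutation p = 0.3). Without WT replicate 3, and also with library totals, 3 genes of the list were higher. T cell markers summed to 249 ± 13.8 CPM in KO and 144 ± 16.6 CPM in WT, of which Tcf7 alone made up 226 CPM in KO and 123 CPM in WT. Tcf7 was lower in the CD4 T cells themselves, at 92.9 CPM in KO and 91.6 CPM in WT, so it does not mark T cells here. Cd3d, Cd3e and Cd3g were each at most 0.285 CPM in dendritic cells. Of the 13 T cell markers, 8 were higher in the mean in KO dendritic cells and 5 lower. B cell markers summed to 24.1 ± 6.18 CPM in KO and 12.2 ± 3.78 CPM in WT. Their part in the plasmacytoid counts was not tested. Exact permutation p was 0.1 for the macrophage, T cell and B cell sums, the smallest that 3 against 3 libraries allow.

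Flt3, Zbtb46 and Itgax belong to a list of general identity genes, of which 2 of 23 were higher, 3 lower and 18 not called, with a median of -0.09. The share called is that of all tested genes, 21.6%, to within 1 gene. Without WT replicate 2, 7 were lower, and with library totals 8. Dpp4 and Adam19 rose by 0.50 and 0.75, while Amica1, Spint1 and Ciita, the activator of class II genes, fell by 0.93, 0.80 and 0.37 on the log2 scale. Cst3 and Cd74, which are abundant in antigen-presenting cells, were not called (0.11 and -0.29).

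**Figure D4:**
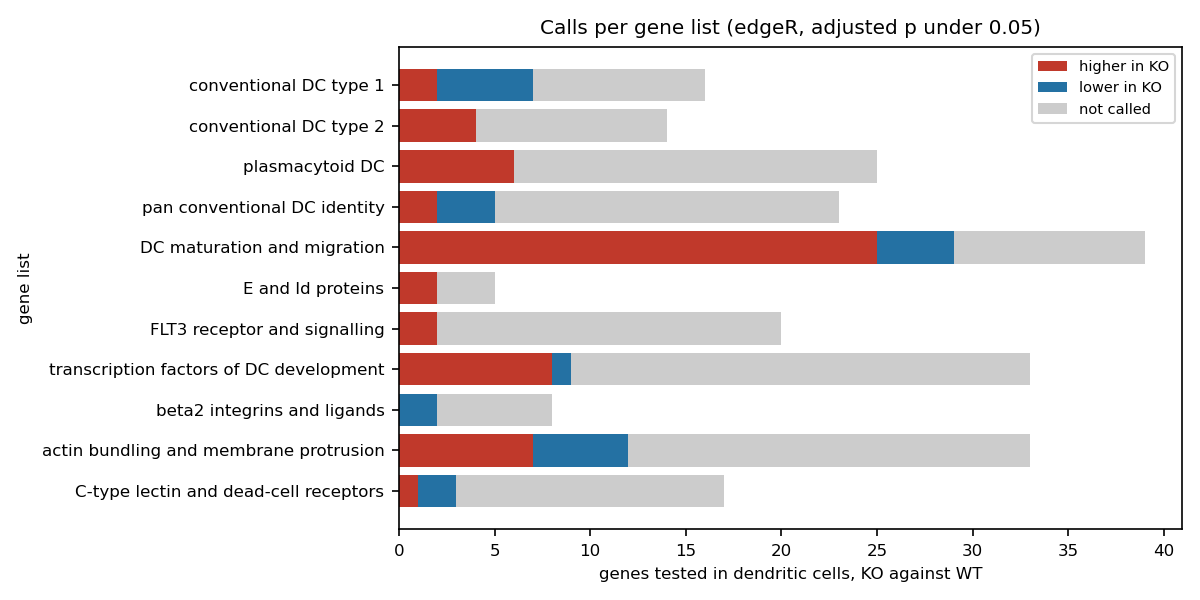
Number of tested genes called higher, called lower or not called in dendritic cells, KO against WT, for each of 11 lists (edgeR adjusted p under 0.05; lists share some genes). The maturation and migration list has 25 of 39 called higher, and the 2 called genes of the integrin list are both lower.

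Genes that act with the members were counted in the same way. Among E and Id proteins, 2 of 5 tested were higher, Tcf4 and Tcf3, another E protein gene, with 157 ± 8.26 CPM in KO and 125 ± 1.03 CPM in WT (SD, n = 3; edgeR adjusted p = 0.0074). Tcf12 was not called (0.24). Leaving out 1 library at a time gave 0 to 3 higher genes in this list.

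Of 20 tested genes around FLT3 signalling, 2 were higher and none lower, with a median of 0.04, a share of higher genes close to the 12.2% of all genes. Without WT replicate 1, 5 were lower, without WT replicate 2, 4 were higher and 1 lower, and with library totals 3 were lower. The higher genes are known to restrain signalling of cytokine receptors. The ubiquitin ligase gene Cblb had 876 ± 32.6 CPM in KO and 581 ± 63.5 CPM in WT, and the adaptor gene Sh2b3 had 188 ± 20.7 CPM in KO and 87.8 ± 20.8 CPM in WT (SD, n = 3; edgeR adjusted p = 0.0011 for each). Stat3 and the receptor subunit gene Csf2rb were not called (0.15 and 0.11).

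Transcription factors of dendritic cell development, 33 tested, had 8 higher and 1 lower, with a median of 0.16, against 12.2% higher over all tested genes. Nr4a3 had 659.7 ± 26.1 CPM in KO and 276 ± 23.3 CPM in WT, Spi1, which encodes PU.1, had 396 ± 2.43 CPM in KO and 245 ± 8.05 CPM in WT, and Relb had 1563 ± 21.2 CPM in KO and 1099 ± 90.0 CPM in WT. Batf, a close relative of Batf3, was the lower one, at 3.26 ± 0.808 CPM in KO and 8.41 ± 1.04 CPM in WT (SD, n = 3; edgeR adjusted p of at most 0.0016 for these 4). Leaving out 1 library at a time gave 3 to 10 higher genes, and library totals 5.

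The integrin list had 2 of 8 tested genes lower and none higher, with a median of -0.34, against 9.42% lower over all tested genes. Itgb2, the beta chain that pairs with CD11c, had 39.5 ± 1.79 CPM in KO and 105 ± 32.2 CPM in WT (-1.42, edgeR adjusted p = 0.0016). Fermt3, whose product kindlin-3 activates these integrins, had 75.8 ± 7.40 CPM in KO and 178 ± 8.23 CPM in WT (SD, n = 3; -1.23, adjusted p = 1.6e-05). Tln1, the talin gene, was not called (adjusted p = 0.99). The macrophage marker sum given above was also lower in KO, and its part in these values was not tested. Each fit without 1 library also gave 2 lower genes.

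The actin list, to which Fscn1 belongs, split in direction, with 7 of 33 higher, 5 lower and a median of 0.08, against 12.2% higher and 9.42% lower over all tested genes. Leaving out 1 library at a time gave 5 to 10 higher and 3 to 5 lower, with 3 lower without KO replicate 2 or KO replicate 3. Actn1 had 2494 ± 47.2 CPM in KO and 1596 ± 149 CPM in WT, while Was had 27.4 ± 1.25 CPM in KO and 55.4 ± 7.13 CPM in WT and Rac2 29.9 ± 1.18 CPM in KO and 62.6 ± 11.1 CPM in WT (SD, n = 3; edgeR adjusted p of at most 0.00052). Fmnl2 and Rdx rose by 0.52 and 0.39, and Vasp fell by 0.40. Lsp1, Cfl1, Pfn1 and Arpc2 were not called.

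In the list of C-type lectin and dead-cell receptors, to which Clec9a belongs, 1 of 17 was higher and 2 lower, with a median of -0.60. The share called is close to the 21.6% of all tested genes. Without WT replicate 2, and also with library totals, 5 were lower, and without WT replicate 3, 4. Cd36, a scavenger receptor gene, had 23.6 ± 2.33 CPM in KO and 50.2 ± 5.53 CPM in WT (SD, n = 3; -1.09, edgeR adjusted p = 0.00016). Clec12a was the higher one, and Syk and Card9, which signal below such receptors, were not called. The macrophage marker sum, at 197 CPM in KO and 368 CPM in WT, was lower here too, and its part in these counts was not tested.

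The genes most like each member were found by Pearson's r of log2 CPM over the 24 libraries among 9848 other genes, or 9849 for Clec9a, with a mean of 5 CPM or more. These values describe shared cell type patterns, since the libraries fall into 4 cell types. Closest to Flt3 were Kdm6a, Ildr1 and Lrrc16b (r of 0.989, 0.989 and 0.988). Zbtb46 was followed by Eps8l2, Myo1g and Trim11 (0.99, 0.987 and 0.985), and Batf3 by genes that included Relt and Adam23 (0.994 and 0.992). Id2 was matched by Tnfaip8, Tprgl and Myl6 (0.995, 0.991 and 0.991), and Fscn1 by Actg1, Nudt17 and Epb41 (0.994, 0.993 and 0.993). Clec9a lay with Sphk1, Vim and Cxcl16 (0.996, 0.994 and 0.993), Itgax with Tlr13, P2rx4 and Pla2g7 (0.992, 0.991 and 0.991) and Tcf4 with Ero1lb, Plcg2 and Lmo2 (0.987, 0.985 and 0.973).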

How the data were processed

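Messenger RNA libraries of 4 activated mouse cell types, KO and WT for miR-155, were prepared with TruSeq reagents and sequenced from both ends, per the labels' protocols. The authors deposited raw counts of reads for each symbol, and the files are named for coding sequence. The tools cutadapt and STAR and the build mm9 appear in the submitters' processing notes without versions; how reads were counted, and with which strand setting, is not given in the sources used. Lines naming no gene were left out (the line for reads outside any feature held 51.4 to 61.1% of counts). Groups came from the sample titles.

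From these counts, KO and WT libraries of each cell type were compared with edgeR 4.0.16 in R 4.3.3 (TMM, filterByExpr, robust quasi-likelihood test, Benjamini-Hochberg over all tested genes, threshold 0.05). The SE is the absolute log2 fold change over the square root of F. Differences between KO effects used all 24 libraries, and WT cell types used the WT libraries. The fits were first tested on simulated data. Marker sums were compared by two-sided exact permutation. DESeq2 1.42.0 was an alternative. Lengths per kilobase are the union of coding sequence in GENCODE M21, not of the mm9 annotation. The members and lists were chosen with earlier results of these data known. From each list, up to 6 called genes with the smallest p and 4 uncalled genes with the highest mean, all at 5 CPM or more, were eligible to be named. For each member, the 3 genes with the highest correlation were eligible, and 1 of these is not reported here.

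Every library pair within a group differed by more than counting noise (chi-square per gene of 2.08 to 160.7 over genes with at least 20 counts), so none was counted as a copy. The labels share replicate numbers but name no common animal or day. In macrophages all 3 same-number pairs deviated together (correlations of 0.11, 0.28 and 0.37, against at most 0.10 for other pairs). The numbers were therefore taken to pair those libraries, by a small margin for the weakest pair. In dendritic cells 1 of 3 same-number pairs deviated together, at 0.15, but a pair of unlike numbers also reached 0.15. In B cells the same-number pairs had 0.18, 0.05 and 0.22, against at most 0.06 for other pairs. A pairing in B cells was therefore not settled. Intervals of counts cover counting error only.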

Additional observations from a re-analysis of the deposited data

Results flagged for a closer look

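Id2, the inhibitor of E proteins, was singled out because its KO effect differed between dendritic cells and macrophages by a test of the difference itself (0.789 on the log2 scale, SE 0.20, edgeR adjusted p = 0.013). That test took 1 dispersion estimate over all 24 libraries and had no block. WT macrophage pairs differed by a chi-square per gene of 39.2, 65.8 and 160.7, against at most 15.9 in WT dendritic cells. In macrophages alone Id2 was not called (edgeR adjusted p = 0.13). Its values did not overlap between genotypes in macrophages (59.4 to 81.3 CPM in KO, 95.6 to 161 CPM in WT) and did in dendritic cells (719 to 748 CPM in KO, 709.7 to 786 CPM in WT). Monocyte markers averaged 620 ± 26.3 CPM in KO macrophages and 1483 ± 190 CPM in WT macrophages, and stromal and mesothelial markers 553 ± 245 CPM in KO and 286 ± 127 CPM in WT (SD, n = 3). The part of these markers in the Id2 difference was not tested.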

How the results depend on the processing

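Of 398 member values recomputed under other normalizations, filters, tools and fits, 379 kept their direction and their side of the threshold, 4 lost a call, 11 gained one and 4 changed sign without a call, and of 426 values with 1 library left out 372 kept both. The Fscn1 call in dendritic cells was kept in every one of these fits; the Tcf4 call was not, as given in the report. The 4 changes of sign were Flt3 (-0.03), Zbtb46 (-0.069) and Batf3 (-0.06) in dendritic cells with library totals, a scaling added after seeing the data, and Clec9a there with the replicate block (0.009). Of the genes called in dendritic cells, 29.6% were higher in KO with library totals and 51.6 to 61.8% under the other normalizations, filters, tools and fits, against 56.4%. The 398 and 426 values do not cover every member result. For the KO effect in dendritic cells against B or T cells they hold only Fscn1 and Tcf4. Clec9a was left out of the WT comparisons with B and T cells.

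The number of genes called moved as follows. In dendritic cells it was 1176 to 2870 with 1 library left out, against 2279. In macrophages it was 265 with the replicate block, 547 in DESeq2, 1755 with 1 fit of all 24 libraries and 0 to 2746 with 1 library left out, against 95; the 0 was edgeR without KO replicate 1 and the 2746 without WT replicate 3. In B cells it was 501 without a filter, 1260 with the replicate block, 81 with all 24 libraries and 141 to 441 with 1 left out, against 325. In T cells it was 478 without a filter, 63 with all 24 libraries and 32 to 598 with 1 left out, against 223. For the difference between dendritic cells and macrophages it was 848 to 2337, against B cells 1047 with library totals and 432 to 821 with 1 left out, and against T cells 457 to 799. The causes were not tested. Same-number libraries did not all deviate together in dendritic cells, B cells or T cells, so the block was not read as a pairing there; it left 2266 genes called in dendritic cells.

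With 1 library left out, log2 values that crossed 0 ranged in dendritic cells from -0.021 to 0.101 for Zbtb46, -0.035 to 0.238 for Batf3, -0.061 to 0.005 for Id2, -0.188 to 0.298 for Clec9a and -0.232 to 0.008 for Itgax, of which the Batf3 value of 0.238 alone was called. In macrophages Clec9a ran from -0.15 to 0.295 and Tcf4 from -0.216 to 0.153, and in B cells Flt3 ran from -0.017 to 0.276 and Fscn1 from -0.216 to 0.104. In T cells Flt3 ran from -0.123 to 0.334, Zbtb46 from -0.197 to 0.464, Id2 from -0.037 to 0.191 and Tcf4 from -0.088 to 0.316. Between cell types, Flt3 ran from -0.173 to 1.278 and Clec9a from -0.291 to 0.271 against macrophages, and Fscn1 from -0.307 to 0.164 against T cells. The KO minus WT difference of plasma cell markers in dendritic cells ran from -6.7 to 12.1 CPM. Depth limits Clec9a in dendritic cells, at 33 to 66 reads, and Zbtb46, Id2 and Fscn1 in B and T cells.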
